A study of Mus musculus with 4 samples.

Results

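The envelope genes of the epidermal differentiation complex were followed in tumour stem cells with and without TGF-beta signaling. Members were all genes whose symbol starts with Sprr or Lce, together with Flg, Flg2, Hrnr, Rptn, Crnn, Ivl, Lor and Tchh. The files listed 44 such genes among 31729 genes in all. They comprised 16 Sprr genes, 13 Lce1 genes, 6 Lce3 genes, Lce6a, Ivl and Lor, and the 6 genes of the fused S100 type. All lie on chromosome 3, from Lor (start 91884197) to Tchh (end 93252999) in mm9 coordinates. The rule names genes by symbol and uses no measured value, though earlier results of these data were known when it was written.

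The cornified envelope is the cross-linked protein shell that replaces the plasma membrane of a keratinocyte at the end of its differentiation. Involucrin forms an early scaffold on which loricrin, the small proline-rich (Sprr) proteins and the late cornified envelope (Lce) proteins are joined by transglutaminases. Filaggrin, hornerin, repetin, cornulin and trichohyalin belong to the fused S100 type, and bind keratin filaments or the envelope. In skin these genes are known as products of suprabasal cells, and several Sprr genes are also known to be induced by injury, inflammation and oxidative stress.

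The RNA came from the stem cells of primary squamous cell carcinomas of mouse epidermis, in 2 experiments. All tumours carried TetO-Hras, an Hras transgene that rtTA3 switches on, and the lentiviral construct LV-rtTA3-TGF-beta reporter, which supplies rtTA3 and marks TGF-beta signaling by mCherry, in mice of the strain labelled C57BL/6 X FBV. Lineage-negative cells with integrin alpha6 and CD44 on their surface were sorted into a reporter negative fraction (no TGF-beta signaling) and a reporter positive fraction (TGF-beta signaling present). A single library was made of each fraction in each experiment, which gives 2 per group, called negative 1, negative 2, positive 1 and positive 2. The labels give no age or animal for a library. A p-value therefore covers no more than the spread among the 4 libraries, which may be technical. Whether tumours were pooled is not stated in the sources used.

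The libraries held 3.13 to 3.75 gigabases of aligned sequence, recovered from coverage and FPKM. FPKM scales fragments to transcript length and to library size, so levels of different genes can be set side by side per length. Of the genes that mark the gate, Itga6 stood at 331 and 410 FPKM in the negative libraries and 181 and 205 in the positive ones (adjusted p = 0.0565, limma), and Cd44 at 81.5, 112, 88.0 and 81.3. The summed level of the 4 listed markers of basal keratinocytes (Col17a1, Itga6, Itgb4, Trp63) was 1243 and 1429 FPKM in the negative and 566 and 587 in the positive libraries. For the 5 listed suprabasal markers (Krt10, Krtdap, Sbsn, Dsg1a, Dsc1) it was 3907 and 3415 against 8161 and 7862. Krtdap held most of that sum, at 3024 and 2404 against 6592 and 5891 FPKM. Others on the list did not follow it: Krt10 stood at 629 and 848 against 504 and 838 FPKM, and Dsc1 at 4.57 and 6.41 FPKM in the negative libraries and a listed 0 in both positive ones. Fibroblast markers summed to 26.9 and 41.1 against 12.8 and 27.5 FPKM, leukocyte markers to 5.57 and 6.99 against 6.97 and 12.6, and endothelial markers to 2.45 to 9.46 over the 4 libraries. The part of these marker levels in the results on the envelope genes was not tested. In sorted bulk RNA, fewer cells of a type and less RNA per cell cannot be told apart.

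Together the 44 genes held 2481 and 1670 FPKM in negative 1 and 2 and 8247 and 7552 FPKM in positive 1 and 2. That is 3.32-fold more in experiment 1 and 4.52-fold more in experiment 2. Their share of all gene FPKM was 0.366% and 0.276% in the negative and 1.24% and 1.22% in the positive libraries. The make-up of the sum also differed. In the negative libraries the 3 Sprr2a genes held 60.4% and 72.1% of it, whereas in the positive libraries Sprr1a and Sprr1b held 79.6% and 77.3%.

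**Figure D1:**
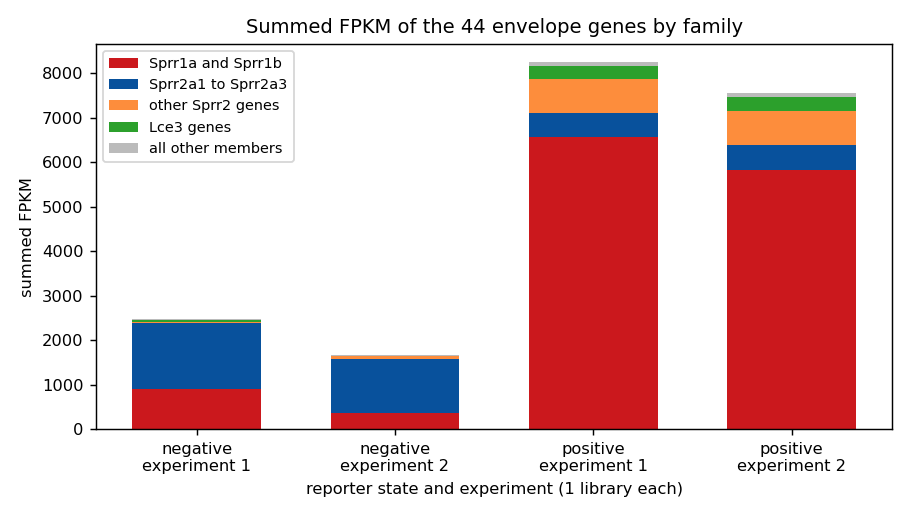
Stacked bars give the summed FPKM of the 44 envelope genes in each of the 4 libraries, split into Sprr1a and Sprr1b, Sprr2a1 to Sprr2a3, the other Sprr2 genes, the Lce3 genes and all other members. The total lies at 2481 and 1670 in the negative and at 8247 and 7552 in the positive libraries, and the Sprr2a part is the larger one only in the negative libraries.

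To test single genes, those that reached 1 FPKM in 2 or more libraries were compared on log2(FPKM + 1), a scale that understates the change of low genes. Of the 44 members 17 passed this filter. At an adjusted p under 0.05 (limma, Benjamini-Hochberg over 11969 genes, 2 against 2 libraries), 5 members were higher and 4 lower in the positive libraries. Of all genes tested, 5.07% passed, 2.55% as higher and 2.52% as lower. The higher members were Sprr1b, Sprr1a, Ivl, Lce3c and Lce3d, and the lower ones Sprr2a1, Sprr2a2, Sprr2a3 and Sprr2g. The lower calls numbered 1 without negative 2, 2 without negative 1, 2 without positive 1 and 2 under median-of-ratios scaling, and the higher ones 7, 7, 7 and 5. With the experiment as a block, 11 members passed, where 10.4% of all genes did, and Sprr2d and Sprr2h joined the higher ones. The median change of the 17 was 0.62 on the log2(FPKM + 1) scale, beside -0.18 for all genes, and ran from 0.082 with no filter on low values to 2.64 without positive 1. Crnn and Sprr2g entered the test only through the group in which they were high, and the Sprr2a genes share sequence, so these counts are a description. None of the 9 passed when all genes with any value were tested (4 of 20038 genes passed) or when only reference transcripts were summed (75 genes passed).

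**Figure D2:**
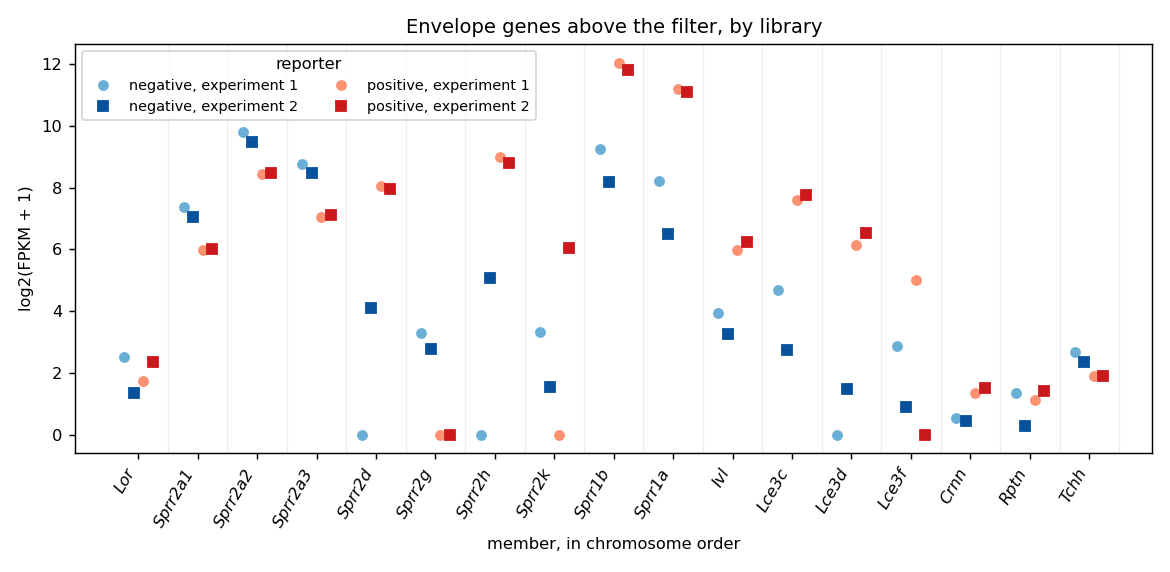
Each point is 1 library, placed by log2(FPKM + 1) of the 17 members above the filter in chromosome order. Sprr1b and Sprr1a are the highest members in both positive libraries, Sprr2a2 is the highest in both negative libraries, and the points for Lor, Sprr2k, Lce3f and Rptn overlap between the groups.

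Values of the groups did not overlap for 13 of the 17 members, 8 higher and 5 lower, where 57.9% of all genes tested did not overlap (15.3% higher, 42.6% lower). Among the 13 are Crnn and Sprr2g, for which the filter fixed this outcome. The upstream sequences of the members on which these results turn are printed here first. They come from RefSeq promoters of GRCm38.p6, which is not the build of the files, and each covers the 250 bases before a gene's start. Capitals mark the AP-1 letters TGANTCA and the TATA letters TATAAA. Lce3d, Sprr2a3 and Ivl were taken by rule, as the members past the threshold with the smallest p that have an entry. Sprr1b and Sprr1a, the most abundant members, and Sprr2d and Sprr2h, which went against the neighbouring Sprr2a genes, were added after their values were seen. The windows are, in this order, chr3:92957140-92957389 (+), chr3:92285054-92285303 (+), chr3:92573736-92573985 (-), chr3:92438780-92439029 (-), chr3:92485882-92486131 (-), chr3:92338890-92339139 (+) and chr3:92385435-92385684 (+).
Lce3d: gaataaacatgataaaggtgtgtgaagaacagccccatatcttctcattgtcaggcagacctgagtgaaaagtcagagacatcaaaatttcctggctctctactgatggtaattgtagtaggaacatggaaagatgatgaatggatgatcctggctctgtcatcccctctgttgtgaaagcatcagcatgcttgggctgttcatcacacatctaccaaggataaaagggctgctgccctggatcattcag
Sprr2a3: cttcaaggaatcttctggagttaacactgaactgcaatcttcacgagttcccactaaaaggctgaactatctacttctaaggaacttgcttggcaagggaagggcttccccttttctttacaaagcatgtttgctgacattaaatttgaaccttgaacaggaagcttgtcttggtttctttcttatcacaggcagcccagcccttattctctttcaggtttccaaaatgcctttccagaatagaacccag
Ivl: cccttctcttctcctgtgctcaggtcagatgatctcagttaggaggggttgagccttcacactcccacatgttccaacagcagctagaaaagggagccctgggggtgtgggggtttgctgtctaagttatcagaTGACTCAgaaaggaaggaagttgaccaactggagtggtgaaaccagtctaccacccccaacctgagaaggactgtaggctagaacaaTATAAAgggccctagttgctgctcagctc
Sprr1b: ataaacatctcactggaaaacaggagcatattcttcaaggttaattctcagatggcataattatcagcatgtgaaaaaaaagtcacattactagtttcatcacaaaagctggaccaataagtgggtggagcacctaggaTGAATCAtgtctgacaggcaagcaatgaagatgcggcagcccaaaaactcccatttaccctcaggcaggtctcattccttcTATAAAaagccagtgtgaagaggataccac
Sprr1a: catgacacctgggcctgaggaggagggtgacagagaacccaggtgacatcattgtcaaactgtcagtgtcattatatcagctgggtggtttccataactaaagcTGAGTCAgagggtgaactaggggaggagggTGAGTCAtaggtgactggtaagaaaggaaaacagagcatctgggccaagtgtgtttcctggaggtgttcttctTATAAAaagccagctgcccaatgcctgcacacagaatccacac
Sprr2d: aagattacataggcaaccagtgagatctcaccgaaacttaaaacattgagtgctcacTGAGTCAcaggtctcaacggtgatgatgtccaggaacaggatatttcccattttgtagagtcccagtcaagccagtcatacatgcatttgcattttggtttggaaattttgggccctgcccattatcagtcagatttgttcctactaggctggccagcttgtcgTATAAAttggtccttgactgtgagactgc
Sprr2h: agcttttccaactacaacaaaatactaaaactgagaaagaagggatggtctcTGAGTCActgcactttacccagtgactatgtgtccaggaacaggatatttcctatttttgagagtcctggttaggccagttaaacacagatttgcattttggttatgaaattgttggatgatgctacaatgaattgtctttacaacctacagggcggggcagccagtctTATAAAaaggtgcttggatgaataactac

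Ivl, the early scaffold protein, rose in the positive libraries. Its gene (ENSMUSG00000049128, chr3:92374834-92377637) stood at 14.4 and 8.67 FPKM in negative 1 and 2 and at 61.7 and 75.1 FPKM in positive 1 and 2. Both positive libraries lay above both negative ones, 4.27-fold in experiment 1 and 8.66-fold in experiment 2. The difference was 2.50 ± 0.27 (SE) on the log2(FPKM + 1) scale (adjusted p = 0.0194, limma, n = 2 and 2). Assembled transcripts on the opposite strand overlap Ivl, and with them its values were 21.4, 11.04, 84.3 and 75.1 FPKM. Lor encodes loricrin, the main envelope protein of mature epidermis. It was low in all 4 libraries, at 4.68 and 1.58 FPKM in the negative and 2.33 and 4.08 in the positive ones, and its groups overlapped (0.10 ± 0.45, adjusted p = 0.910).

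The pair Sprr1b and Sprr1a, small proline-rich proteins that are cross-linked into the envelope as bridges, held the highest levels of all members in the positive libraries. Sprr1b (ENSMUSG00000048455, chr3:92240731-92242701) stood at 603 and 287 FPKM in the negative and at 4235 and 3626 FPKM in the positive libraries. Among all genes, ranked by FPKM within a library, it moved from places 195 and 361 to places 6 and 9. It was 7.03-fold and 12.6-fold higher within the 2 experiments, a difference of 3.23 ± 0.39 (adjusted p = 0.0263, limma). Sprr1a (ENSMUSG00000050359, chr3:92287874-92289817) stood at 296 and 89.2 against 2331 and 2209 FPKM. It was 7.87-fold and 24.8-fold higher, a difference of 3.79 ± 0.57 (adjusted p = 0.0389, limma), which did not pass with robust variance estimation (adjusted p = 0.0727). Neither transcript shares any 50-base window with another member. The ratio of Sprr1b to Sprr1a was 2.03 and 3.22 in the negative and 1.82 and 1.64 in the positive libraries. In negative 2 an assembled transcript of 41.4 FPKM spans Sprr1b and was placed with no gene. With it, Sprr1b in that library would be 328 FPKM.

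Within the Sprr2 cluster the summed FPKM, as listed, hardly differed, while its composition did. The 12 genes summed to 1517 and 1269 FPKM in the negative and 1317 and 1310 in the positive libraries, ratios of 0.868 and 1.03 in the 2 experiments. The share held by Sprr2a1, Sprr2a2 and Sprr2a3 was 98.8% and 94.8% in the negative and 40.9% and 42.3% in the positive libraries. Their sum fell from 1500 to 539 FPKM in experiment 1 (2.78-fold) and from 1203 to 554 FPKM in experiment 2 (2.17-fold). The other 9 summed to 17.7 and 65.4 against 778 and 756 FPKM. Sprr2d, Sprr2h and other Sprr2 genes were listed at 0 in negative 1, which can be a failed estimate. FPKM also depends on the length of each gene model, so the sums and shares carry both limits.

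Sprr2a3 (ENSMUSG00000074445, chr3:92054654-92093169) stood at 438 and 357 FPKM in the negative and 132 and 137 in the positive libraries, a difference of -1.55 ± 0.16 (adjusted p = 0.0187, limma). Sprr2a2 (ENSMUSG00000068893) had the highest FPKM of the Sprr2 genes in the negative libraries, at 898 and 714 against 345 and 354 FPKM (-1.19 ± 0.18, adjusted p = 0.0394). All of it came from a model of 722 exonic bases that starts inside Sprr2a1. The other Sprr2a2 model was listed at 0 throughout. The Sprr2a1 model has 3541 bases, so the order of these copies by FPKM also depends on model length. Sprr2a1 (ENSMUSG00000078664) stood at 164 and 132 against 61.5 and 63.8 FPKM (-1.22 ± 0.16, adjusted p = 0.0307). For each of the 3, both positive libraries lay below both negative ones. These copies share much sequence, Sprr2a3 less than the others. Of the 50-base windows of the transcripts, 96.3% of Sprr2a1, 96.5% of Sprr2a2 and 61.1% of Sprr2a3 occur in another member. The copies also run into each other in the gene models. How reads were divided between them is therefore uncertain, and the proportion of Sprr2a2 to Sprr2a1 was 5.39 to 5.62 in every library. Summed into 1 entry, which was chosen after the values were seen, they fell by 1.30 ± 0.19 (adjusted p = 0.0369). Under median-of-ratios scaling Sprr2a1 (adjusted p = 0.0695) and Sprr2a2 (adjusted p = 0.104) no longer passed. Leaving out negative 2 or positive 1 ended the call of Sprr2a1 (adjusted p = 0.0507 and 0.0543), and leaving out any 1 library ended that of Sprr2a2 (adjusted p = 0.0529 to 0.135).

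Downstream of the Sprr2a copies, Sprr2d and Sprr2h were high in the positive libraries. Sprr2d (ENSMUSG00000042212, chr3:92143062-92144795) was listed at 0 in negative 1 and stood at 16.2 FPKM in negative 2, 266 in positive 1 and 245 in positive 2. Sprr2h (ENSMUSG00000046259, chr3:92189607-92191246) was listed at 0 in negative 1 and stood at 33.0, 512 and 447 FPKM in the other libraries. Within experiment 2 they were 15.1-fold and 13.5-fold higher. In negative 2 an assembled transcript of 16.5 FPKM on the opposite strand overlaps Sprr2h and was placed with no gene. It is not counted in the fold of Sprr2h, which would be smaller with it. In experiment 1 no fold can be given, and both zeros of negative 1 carried the Cufflinks flag of full read support. Neither passed the test (5.95 ± 1.32, adjusted p = 0.0773, and 6.36 ± 1.64, adjusted p = 0.0988, limma), and both passed with the experiment as a block (adjusted p = 0.0370 and 0.0498). Their differences moved with the negative library left out: without negative 1 they were 3.90 for Sprr2d and 3.82 for Sprr2h, and without negative 2 they were 8.002 and 8.90. Leaving out 1 library gave adjusted p-values of 0.00423 to 0.0305 for Sprr2d and 0.00423 to 0.0547 for Sprr2h, against 0.151 and 0.171 with a pseudocount of 0.1 and 0.231 and 0.282 with robust variance estimation. Unlike the Sprr2a copies they have little sequence in common with other members, with 4.27% of the windows of Sprr2d and none of Sprr2h found elsewhere. Summed from Sprr2d to Sprr2j-ps, a choice made after the values were seen, the entry did not pass (4.87 ± 0.88, adjusted p = 0.0525). Where both were above 0, Sprr2h stood at 1.83 to 2.04 times Sprr2d.

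Sprr2g (ENSMUSG00000046203, chr3:92177837-92179151), which lies between Sprr2d and Sprr2h, went the opposite way. It stood at 8.72 and 5.89 FPKM in the negative libraries and was listed at 0 in both positive ones (-3.03 ± 0.25, adjusted p = 0.0127, limma). It entered the test through the negative libraries alone. A listed 0 can be a failed estimate. Of 59 zeros of members, 30 carried the flag of full read support, both zeros of Sprr2g among them. Of the tested genes, 3.95% were listed at 0 in at least 1 library, among them the widely expressed gene Jund. Sprr2k had no common direction, at 8.99 and 1.95 FPKM in the negative libraries, a listed 0 in positive 1 and 64.6 FPKM in positive 2 (0.58 ± 2.02, adjusted p = 0.887). Without positive 1 its difference was 3.60 (adjusted p = 0.0115). The remaining Sprr genes were under the filter. Sprr2f, Sprr2i and Sprr2j-ps had values above 0 in negative 2 alone, at 1.83, 3.18 and 3.35 FPKM. Sprr2b and Sprr2e were listed at 0 in all 4 libraries. Sprr3, a marker of internal stratified epithelia, reached at most 0.630 FPKM, and Sprr4 reached 2.24 FPKM in positive 2 and was listed at 0 in the other libraries.

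**Figure D3:**
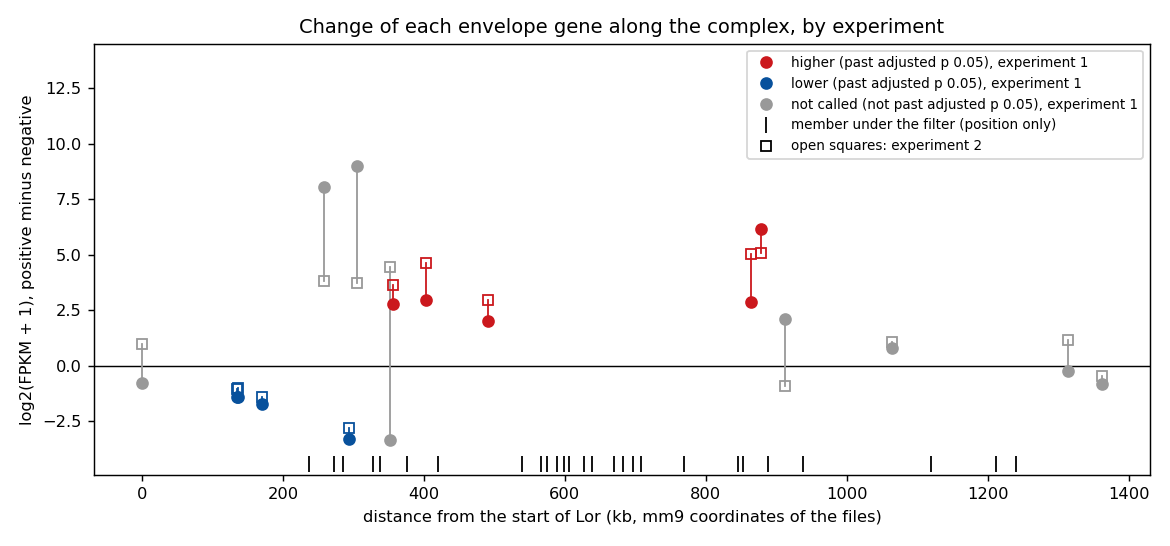
The vertical axis is the difference of log2(FPKM + 1), positive minus negative, in experiment 1 (filled circles) and experiment 2 (open squares), and the horizontal axis is the distance in kb from the start of Lor. Red and blue mark members past an adjusted p of 0.05, grey those not past it, and ticks the 27 members under the filter. The Sprr2a genes and Sprr2g lie below 0 and Sprr1b, Sprr1a, Ivl, Lce3c and Lce3d above 0 in both experiments.

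Among the late envelope genes, Lce3c and Lce3d rose, 3 other Lce3 genes and all 13 Lce1 genes were under the filter, and Lce3f did not pass. Lce3 proteins are known for their induction when the skin barrier is damaged, whereas Lce1 proteins are products of the outermost layers of normal epidermis. The 6 Lce3 genes summed to 34.1 and 8.52 FPKM in the negative and 292 and 313 FPKM in the positive libraries. The 13 Lce1 genes summed to 1.03, 1.07, 0.970 and 3.80 FPKM over the 4 libraries. Every Lce1 gene was under the filter, and the highest single value was 1.26 FPKM, for Lce1g in positive 2.

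Lce3c (ENSMUSG00000045475, chr3:92748408-92749652) rose from 24.9 and 5.68 FPKM to 191 and 217 FPKM (3.96 ± 0.64, adjusted p = 0.0441, limma). This was 7.68-fold in experiment 1 and 38.3-fold in experiment 2, and the groups did not overlap. Lce3d (ENSMUSG00000043472, chr3:92761980-92762353) was listed at 0 in negative 1 and stood at 1.78, 70.2 and 92.2 FPKM in the other libraries (5.61 ± 0.51, adjusted p = 0.0166). All of its FPKM came from assembled transcripts, and its reference transcript was listed at 0 throughout. In negative 1 an assembled transcript of 3.39 FPKM overlaps exons of Lce3c and Lce3d and was placed with no gene. With it added whole to both, a choice made after the values were seen, Lce3d stood at 3.39 FPKM in that library and its difference was 4.55 ± 0.28 (adjusted p = 0.00810), while Lce3c no longer passed (3.87 ± 0.70, adjusted p = 0.0519). Sequence is shared here too, with 35.7% of the windows of Lce3c and 49.3% of those of Lce3d found in another member. Summed with their neighbours from Lce3b to Lce3f, a choice made after the values were seen, these genes rose by 4.05 ± 0.62 (adjusted p = 0.0398). With a pseudocount of 0.1 neither passed alone (adjusted p = 0.0577 for Lce3c and 0.0640 for Lce3d), and Lce3c also did not under quantile normalization (0.0596), with the most abundant transcript (0.0518) or with robust variance estimation (0.120).

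The other Lce3 genes showed no common direction. Lce3f stood at 6.33 and 0.847 FPKM in the negative libraries, 30.9 in positive 1 and a listed 0 in positive 2 (0.62 ± 1.73, adjusted p = 0.857). Without positive 2 its difference was 3.11 (adjusted p = 0.0353). Lce3b had 2.88 and 0.136 FPKM in the negative libraries and a listed 0 in the positive ones, Lce3a reached 3.23 FPKM in positive 2, and Lce3e was listed at 0 throughout. Lce6a had 0.457 and 0.0960 FPKM in the negative libraries and was listed at 0 in the positive ones.

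The fused S100-type genes stayed low. Crnn, which encodes cornulin, stood at 0.458 and 0.348 FPKM in the negative and 1.54 and 1.85 in the positive libraries. It entered the test through the positive libraries alone, so the filter itself kept its groups from overlapping. Its difference of 0.94 ± 0.20 did not pass (adjusted p = 0.0705, limma). Tchh, trichohyalin of hair follicle root sheath, stood at 5.48 and 4.09 against 2.74 and 2.70 FPKM, also without overlap (-0.62 ± 0.21, adjusted p = 0.158). Rptn, repetin, overlapped between the groups, at 1.54 and 0.204 against 1.18 and 1.69 FPKM (0.47 ± 0.40, adjusted p = 0.513). Filaggrin (Flg) was at most 2.09 FPKM, hornerin (Hrnr) at most 0.249 and Flg2 at most 0.0509 FPKM. The Flg model of the files holds 1488 exonic bases, beside 14497 in the transcript of the annotation used for names, so its value covers a small part of that gene.

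Envelope partners were read from a list of 26 names, of which 22 were listed and 20 tested. The list holds cross-linkers, scaffold genes and other genes of the envelope or of the outermost layers of epidermis. In the positive libraries 9 of the 20 were higher and 0 lower (limma), beside 2.55% and 2.52% of all genes tested. Aloxe3, among the 9, entered the test through the positive libraries alone, so this count is a description. At an unadjusted limma p under 0.05 there were 16 of the 20 (25.6% of all genes tested). With the experiment as a block 11 were higher, beside 4.09% of all genes. The median difference of the 20 was 1.39. Tgm1, the membrane-bound transglutaminase that cross-links envelope proteins, stood at 10.5 and 8.44 against 68.2 and 75.0 FPKM (2.80 ± 0.17, adjusted p = 0.00762). Tgm3, another epidermal transglutaminase, stood at 93.4 and 111 against 585 and 690 FPKM (2.63 ± 0.17, adjusted p = 0.00892). Both enzymes were higher in each positive library than in either negative one.

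Of the 2 plakin scaffold genes, Evpl (envoplakin) rose from 19.0 and 23.8 to 46.0 and 44.3 FPKM (1.05 ± 0.17, adjusted p = 0.0414), and Ppl (periplakin) overlapped at 20.7 and 30.5 against 27.3 and 30.8 FPKM (0.20 ± 0.22, adjusted p = 0.627). The lipoxygenase gene Alox12b went from 5.50 and 1.89 to 62.9 and 65.4 FPKM (3.91 ± 0.40, adjusted p = 0.0186, limma). Its partner Aloxe3 went from 0.589 and 0.534 to 5.05 and 5.25 FPKM (1.98 ± 0.19, adjusted p = 0.0169, limma). Because Aloxe3 entered the test through the positive libraries alone, the filter itself kept its groups from overlapping. Spink5, an inhibitor of the kallikrein proteases of the outer skin, went from 16.4 and 15.3 to 131 and 143 FPKM (3.03 ± 0.14, adjusted p = 0.00466). Cnfn, cornifelin, stood at 64.3 and 15.2 against 427 and 413 FPKM and did not pass (3.69 ± 0.66, adjusted p = 0.0509), but did with the block (adjusted p = 0.0233). Sbsn, Abca12 and Dmkn completed the genes that passed.

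Transcription factors known to act on keratinocyte differentiation moved in both directions. Of 36 listed, 34 were tested, 5 were higher and 4 lower, with a median difference of -0.05 (limma). Of all genes tested, 2.55% were higher and 2.52% lower. Those that rose were Grhl3, Ovol1, Zfp750, Grhl1 and Klf4. Grhl3, a grainyhead factor needed for the skin barrier, went from 9.83 and 9.26 to 46.5 and 64.5 FPKM (2.40 ± 0.20, adjusted p = 0.0139). Zfp750, an effector of terminal differentiation, went from 30.8 and 29.4 to 72.4 and 65.6 FPKM (1.17 ± 0.14, adjusted p = 0.0241). Klf4, a barrier factor, went from 63.0 and 74.0 to 125 and 143 FPKM (0.96 ± 0.16, adjusted p = 0.0451). Pou2f3, Pou3f1 and Gata3 fell. The remaining gene that passed as lower was Jund. It stood at 14.4 and 14.3 FPKM in the negative libraries and was listed at 0 in both positive ones, which can be a failed estimate. Jund entered the test through the negative libraries alone. Pou2f3, a POU factor of epidermis, went from 10.3 and 15.1 to 1.42 and 1.71 FPKM (-2.40 ± 0.25, adjusted p = 0.0186). Nfe2l2, which encodes the oxidative stress factor Nrf2, stood at 127 and 127 against 174 and 146 FPKM (0.33 ± 0.15, adjusted p = 0.251). The number of regulators that passed was 3 without negative 2 and 4 without positive 1.

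**Figure D4:**
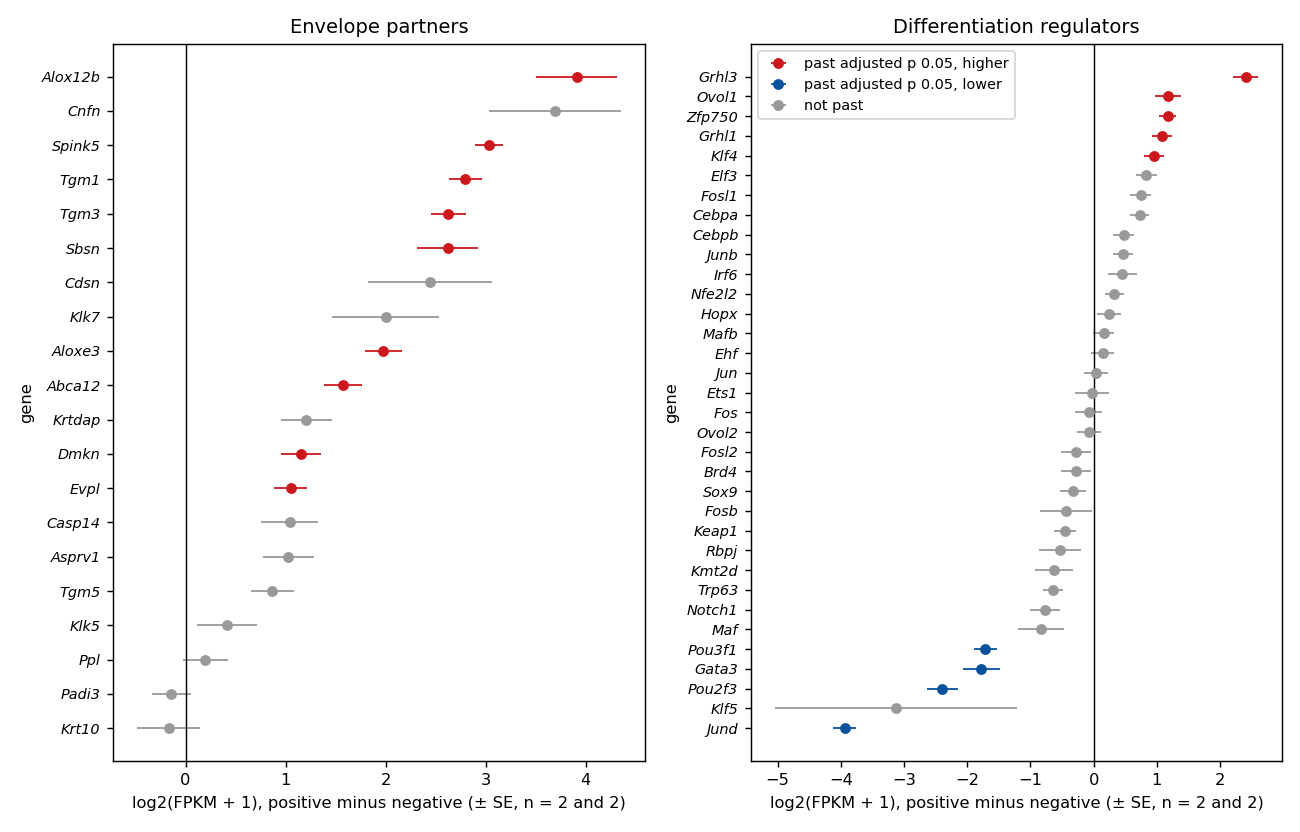
Points give the difference of log2(FPKM + 1), positive minus negative, with its SE (n = 2 and 2), for the 20 envelope partners tested and the 34 differentiation regulators tested. Red points passed as higher and blue points as lower: 9 and 0 among the partners, 5 and 4 among the regulators.

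Flanking genes of the complex were measured too. In the interval written for them, only S100a11 and S100a10 were listed, 2 genes of the S100 family whose proteins are made in many cell types. S100a11 stood at 1347 and 904 against 1271 and 1209 FPKM (0.17 ± 0.25, adjusted p = 0.721, limma), and S100a10 at 860 and 639 against 670 and 609 FPKM (-0.21 ± 0.21, adjusted p = 0.570). Neither passed, none had an unadjusted p under 0.05, and none passed with the block. From S100a1 to S100a10, an extent chosen after the values were seen, 36 genes that are no members were listed and 17 tested. Of the 17, 4 were higher and 0 lower, beside 2.55% and 2.52% of all genes tested. The 4 were S100a16, S100a7a, Pglyrp4 and Crct1. S100a7a stood at 0.334 FPKM and a listed 0 in the negative libraries and at 3.52 and 4.63 FPKM in the positive ones. It entered the test through the positive libraries alone, so the count of 4 is a description. Crct1, a cysteine-rich gene of the complex, went from 5.86 and 1.71 to 26.4 and 32.4 FPKM (2.81 ± 0.47, adjusted p = 0.0454).

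Promoter letters were counted next. RefSeq held a promoter for 41 of the 44, with none for Sprr2g, Sprr2j-ps and Lce1f. AP-1 letters (TGANTCA on either strand) were found in 15 of the 41 windows (36.6%), beside 6.87% of 27025 promoters of the same length, and TATA letters (TATAAA) in 20 (48.8%), beside 13.0%. Both stood together in 34.1% of the members and 1.32% of all promoters. By family, AP-1 letters were in 9 of 14 Sprr promoters, in 0 of 19 Lce promoters and in 6 of the 8 others. Copies share ancestry, so these windows are not independent of each other.

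Among the Sprr2 copies, Sprr2b, Sprr2d, Sprr2e, Sprr2f, Sprr2h, Sprr2i and Sprr2k carried AP-1 letters 193 to 198 bases and TATA letters 29 bases before the start. Sprr2d and Sprr2h, which were high in the positive libraries, and Sprr2b and Sprr2e, which were listed at 0, thus share this arrangement. Zeros of both Sprr2b and Sprr2e include some with the flag of full read support, so they need not mean a low level. The windows of Sprr2a1, Sprr2a2 and Sprr2a3 held neither set of letters. The models that held the FPKM of Sprr2a2 and Sprr2a3 start inside the preceding copy. The windows of these genes therefore do not lie directly before the starts of the models measured. The windows of Sprr2a1 and Sprr2a2 are 100% identical. That of Sprr2a3 aligns to them at 88.8%, as its window is shifted, and the stretch they share has no base difference. Its ETS core letters GGAAG lie 153, 146 and 91 bases before the start, beside 181, 174 and 119 in Sprr2a1. Sprr2d is 67.6% identical to Sprr2h and 54.0% to Sprr2a1, beside 58.4% for Sprr1a and Lce3c, which belong to different families. Sprr1b carried AP-1 letters 111 bases before its start, Ivl 116 bases and Sprr1a 146 and 116 bases. Lce3c and Lce3d, 78.8% identical to each other, had neither set. The search took exact letters, so a near match such as gataaa, present in both windows, was not counted. Whether any of these letters bear on the levels was not tested.

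Other letters were less distinct from the background. The ETS core GGAAG was in 70.7% of member windows and 63.6% of all promoters, and the KLF letters CACCC in 39.0% and 51.3%. The SMAD letters CAGAC were in 29.3% and 42.1%, the antioxidant letters TGACNNNGC in 17.1% and 10.1%, and the grainyhead letters AACNNGTT in 2.44% and 3.63%. All were searched on both strands. AP-1 matches overlapped KLF and antioxidant letters in Sprr1a and SMAD letters in Flg. A match is a stretch of letters, not a measured binding site.

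**Figure D5:**
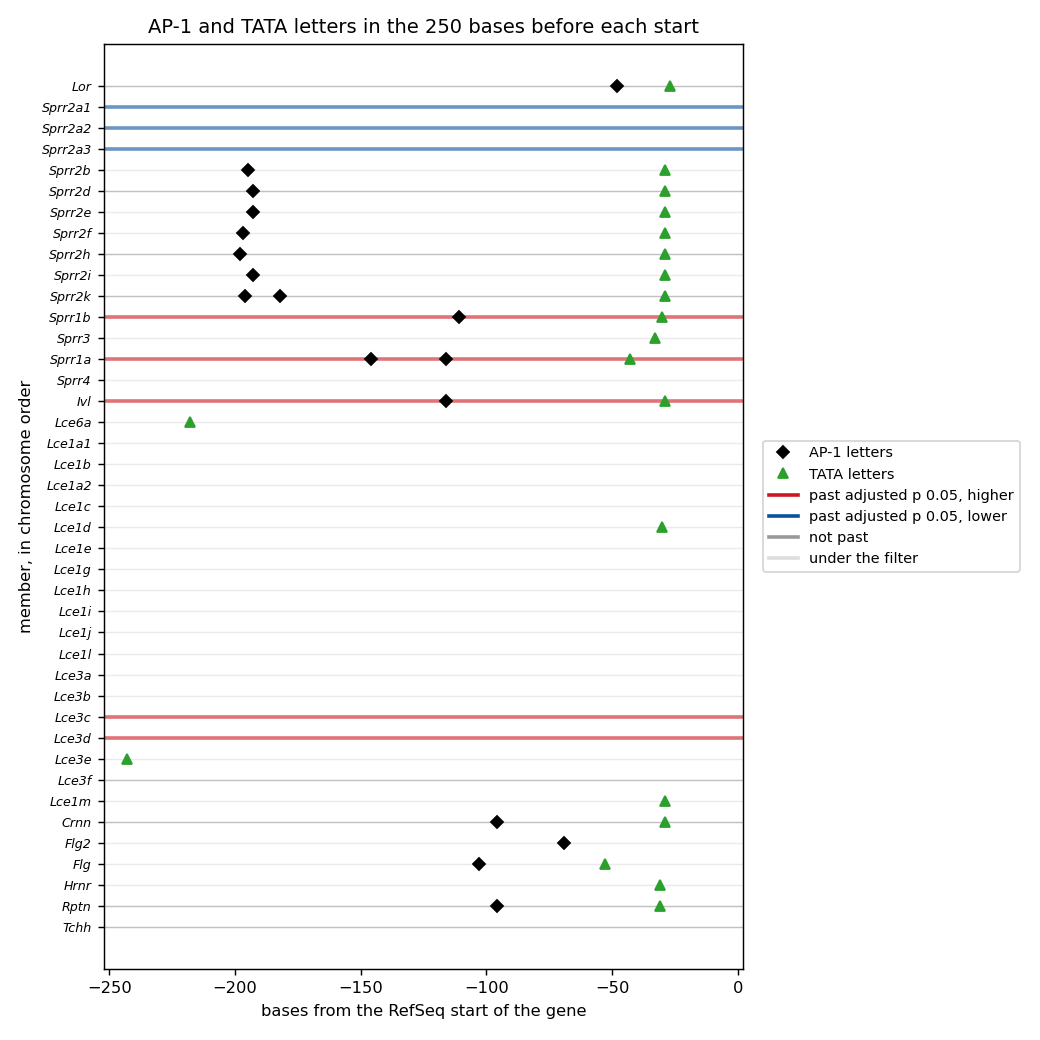
Each line is the window of 250 bases before the RefSeq start of 1 of 41 members in chromosome order, with AP-1 letters as diamonds and TATA letters as triangles, on an axis of bases from the start. Line colour gives the test result (red higher, blue lower, grey not past or under the filter). In Sprr2b, Sprr2d, Sprr2e, Sprr2f, Sprr2h, Sprr2i and Sprr2k the marks line up at 193 to 198 and at 29 bases before the start, and the 3 Sprr2a windows hold none.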

How the data were processed

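RNA from sorted tumour stem cells was made into TruSeq mRNA libraries, per the labels' protocols. TopHat and Cufflinks were used by the authors on mm9, per the submitters' processing notes, and the sources used here give no version, annotation release or strand setting. The deposited tables hold FPKM per transcript, scaled by the authors to length and depth, per the file headers, so no count model was used.

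FPKM of transcripts with at least 200 exonic bases were summed per gene with Python 3.11.15 and pandas 2.3.3. GENCODE M21 (names only, another build) named 84047 of 96734 reference transcripts from their own identifier, and 5138 were named from the gene identifier. Assembled transcripts and the remaining 7549 were given to a gene by position, where its same-strand exons covered at least 50% of their length, which placed 11.8% to 13.3% of FPKM. Transcripts under 200 bases held 95.1% to 98.9% of all FPKM and were left out.

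A gene entered the test if it reached 1 FPKM in 2 or more libraries. The test was limma 3.58.1 under R 4.3.3 (lmFit, eBayes with trend) on log2(FPKM + 1), two-sided, with Benjamini-Hochberg adjustment over 11969 genes and a threshold of 0.05. The test was run on simulated data first. An exact permutation test of 2 against 2 cannot go below 0.333 and was not used. Libraries were grouped by reporter state and paired by the experiment number in their titles, and deviations of same-numbered libraries correlated at 0.174 across genes. The fit with the experiment as a block, other filters, pseudocounts, scalings, transcript choices and each library left out were tried.

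All tested members are named, as are up to 5 genes of each other list by smallest p and a few regardless of value. The members, lists and rules were chosen with earlier results of these data known. The interval written for flanking genes proved too narrow, and a wider one was added after seeing the data. No protein sequence is printed. Krt1, Krt2, Krt77, Krt78, Lce1k and Sprr2c-ps were not analysed here.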

Additional observations from a re-analysis of the deposited data

Results flagged for a closer look

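Lor, Sprr2k, Lce3f and Rptn moved in opposite directions in the 2 experiments, each with 1 library per group. The differences of log2(FPKM + 1), positive minus negative, in experiments 1 and 2 were -0.77 and 0.98 for Lor, -3.32 and 4.48 for Sprr2k, 2.12 and -0.89 for Lce3f, and -0.22 and 1.16 for Rptn. Whether the experiments differ was not tested for any of these genes.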

How the results depend on the processing

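The count of 9 members passing stayed within 1.5 times under most alternatives, but was 0 with no filter on low values (adjusted p of the 9 genes 0.0710 to 0.128), 0 with reference transcripts only (0.0524 to 0.106 where they had a value) and 5 with neighbouring members summed. With the experiment as a replicate block it was 11, and the block also raised Cnfn and Krtdap past the threshold. Leaving out 1 library at a time gave 8 to 11 members, of which 1 to 3 were lower and 6 to 8 were among the 9, with a lone library assumed to vary like the others, 6 to 11 partners and 3 to 7 regulators. Partners passing numbered 14 without genes listed at 0, 0 with no filter and 3 with reference transcripts only. Regulators numbered 0, 0 and 4 with no filter, reference transcripts only and the most abundant transcript. Flanking genes numbered 4 over the wider extent. Of all genes, 607 passed, and 1250 did with the replicate block, 1209 without genes listed at 0, 4 with no filter, 75 with reference transcripts only, 312 with the most abundant transcript, 973 with robust variance estimation and 176 (without negative 2) to 770 (without negative 1) with 1 library left out. The split of all calls into 305 higher and 302 lower became 455 and 202 under median-of-ratios scaling, 407 and 252 under quantile normalization and 140 and 36 without negative 2. These scalings moved the median of all genes from -0.18 to 0.03 and -0.03.

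The members' median of 0.62 became 0.082 with no filter, 2.50 at a minimum of 5 FPKM, 1.10 with a pseudocount of 0.1, 0.94 with the Sprr2a genes or all neighbouring members summed, and 0.41 (without negative 2) to 2.64 (without positive 1) with 1 library left out. No member past the threshold reversed under an alternative run. Reversals, with the other end of the range over left-out libraries, were seen for Lor (-0.46 without negative 2, -0.20 without positive 2, 0.67 without negative 1), Sprr2k (-0.76 at a pseudocount of 0.1, -0.30 without negative 2, -2.44 without positive 2, 3.60 without positive 1), Lce3f (-0.49 at a pseudocount of 0.1, -0.38 without negative 2, 3.11 without positive 2) and Rptn (-0.066 without negative 2, 1.01 without negative 1). The cause was not tested. The number of reads is unknown, and 2 libraries per group limit the precision.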

Other observations

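An unannotated assembled transcript between Sprr4 and Ivl (chr3:92336427-92338485 in negative 1, mm9, minus strand) stood at 25.5 and 6.89 FPKM in the negative and 35.3 and 71.2 FPKM in the positive libraries. These values were noticed among transcripts placed with no gene and were not tested.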
